A study of Mus musculus with 12 samples.

Results

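The transcripts of 9 core genes of Hedgehog signalling were examined in primary brain cultures of *Myt1l* (+/−) and (+/+) mice. MYT1L is a zinc finger transcription factor of neurons that was described as a repressor of non-neuronal genes. The genes were taken by symbol from the deposited count table and comprise the transcription factors *Gli1*, *Gli2* and *Gli3*, the receptor *Ptch1*, the transducer *Smo*, the inhibitor *Sufu*, the coreceptors *Boc* and *Cdon* and the ligand-binding antagonist *Hhip*. They are 9 of the 55397 genes in the table, each matched by 1 entry, and all 9 passed the low-count filter that left 18264 genes for testing.

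Hedgehog ligands act on cells that carry the receptor Patched. Without ligand, Patched keeps Smoothened out of the primary cilium and GLI factors are held by SUFU or cut to repressor forms. With ligand, Smoothened enters the cilium and GLI factors switch on targets that include *Gli1*, *Ptch1* and *Hhip*, so that these transcripts are commonly read as the output of the pathway. In the brain the pathway is known for patterning and for the upkeep of neural progenitors, and astrocytes are among the cells that respond to neuronal Sonic hedgehog.

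The cultures came from newborn (P0) pups of either genotype, 3 *Myt1l* (+/−) and 3 (+/+) animals, and were sequenced as 2 libraries per animal. All animals are labelled male and C57BL/6J with cortex as the tissue, whereas the study names C57BL/6N mice for breeding and describes its sequenced cultures as hippocampal at day in vitro 11. All cultures of both genotypes grew in serum-containing medium and received 2 µM Ara-C, a drug that kills dividing cells, 3 days after plating. The (+/−) animals carried, on 1 allele of every cell, a germline frameshift in *Myt1l* caused by the loss of 7 bp from exon 6. The labels state that the mutant transcript escapes nonsense-mediated decay, and *Myt1l* stood at 89.0, 146 and 165 CPM (counts scaled to the library total) in (+/−) animals 505, 506 and 508, against 119, 147 and 109 CPM in (+/+) animals 510, 511 and 513. *Myt1l* counts therefore could not check the genotype labels. Counts of both libraries were summed, which gave 40642699 to 52833161 counts per animal, with 3.40% to 4.25% of them from mitochondrial genes. The (+/+) animal 511 had 18805 counts of *Xist*, the RNA of the inactive X chromosome, against 5 to 10 in the 5 other animals, which goes against its male label. Results without 511 are therefore given too.

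Divided by exon length, the members spanned a wide range of levels. Means over the 6 animals in CPM per kilobase of exon (RPKM) were 12.98 for *Smo*, 11.1 for *Boc*, 7.25 for *Cdon*, 3.21 for *Ptch1*, 3.07 for *Gli3*, 2.21 for *Sufu*, 1.97 for *Gli2*, 0.421 for *Gli1* and 0.217 for *Hhip*. The ranges of neighbours in this order were separate only between *Cdon* and *Ptch1* and between *Gli2* and *Gli1*. Within an animal the order held in 6 of 6 animals for 5 of the 8 neighbouring pairs, and in 5 of 6 for *Ptch1* over *Gli3*, *Sufu* over *Gli2* and *Gli1* over *Hhip*. The transducer and both coreceptors were thus the most abundant members per length, and *Gli1* and *Hhip* the least. Transcripts read as outputs of the pathway were not all scarce, since *Ptch1* (3.21) stood between *Cdon* and *Gli3*.

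The 9 genes lie on 8 chromosomes (mm10, positions as deposited): *Ptch1* at chr13:63508328-63573598, *Boc* at chr16:44485049-44558897, *Cdon* at chr9:35421128-35507652, *Hhip* at chr8:79965851-80058006, *Smo* at chr6:29735503-29761365, *Sufu* at chr19:46396896-46488804, *Gli1* at chr10:127329882-127341974, *Gli2* at chr1:118834132-119053619 and *Gli3* at chr13:15463235-15730026. Genes that overlap them in the annotation had few counts, at most 66 in an animal for *Gm6556*, which runs antisense over the start of *Gli3*, and at most 22 for *Arhgap9*, which meets *Gli1* end to end. *Gli3* itself had 1094 to 1833 counts per animal and *Gli1* 47 to 162.

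Promoter windows were read to see whether the members share binding letters of GLI factors or of MYT1L. RefSeq (GRCm38.p6, the mm10 sequence) gave a window of 250 bases before to 50 bases after the start for 7 of the 9 members, namely *Gli2*, *Gli3*, *Ptch1*, *Smo*, *Sufu*, *Cdon* and *Hhip*. The windows of *Smo*, whose values separated the genotypes, of *Cdon*, with the largest difference among the abundant members, and of *Gli3*, which held the MYT1L letters, are shown here 5′ to 3′ on the strand of the gene, with the only motif match in capitals. They cover chr6:29735247-29735546 for *Smo*, chr9:35451826-35452125 for *Cdon* and chr13:15463473-15463772 for *Gli3*, all on the plus strand. The *Cdon* and *Gli3* windows lie at starts inside the genes as deposited, as does that of *Ptch1*, which is not shown.
Smo: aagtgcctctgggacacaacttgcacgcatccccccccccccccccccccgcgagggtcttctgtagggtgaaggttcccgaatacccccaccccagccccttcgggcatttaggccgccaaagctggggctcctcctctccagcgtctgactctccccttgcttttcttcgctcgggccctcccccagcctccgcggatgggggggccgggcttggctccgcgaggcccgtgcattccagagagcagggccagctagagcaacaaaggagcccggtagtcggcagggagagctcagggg
Cdon: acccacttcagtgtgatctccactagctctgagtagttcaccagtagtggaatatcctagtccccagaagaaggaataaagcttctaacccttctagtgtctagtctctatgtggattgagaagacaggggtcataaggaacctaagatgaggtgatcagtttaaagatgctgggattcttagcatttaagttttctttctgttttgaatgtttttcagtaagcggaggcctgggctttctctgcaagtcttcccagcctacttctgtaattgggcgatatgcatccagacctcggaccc
Gli3: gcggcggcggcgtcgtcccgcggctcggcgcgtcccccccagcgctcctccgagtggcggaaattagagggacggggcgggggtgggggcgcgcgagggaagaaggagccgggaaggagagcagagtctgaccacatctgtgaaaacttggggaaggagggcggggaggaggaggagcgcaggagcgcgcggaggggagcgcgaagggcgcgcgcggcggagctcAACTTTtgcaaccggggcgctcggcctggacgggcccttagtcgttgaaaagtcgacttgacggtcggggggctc
The core letters bound by GLI proteins, GACCACCCA, were in 0 of the 7 windows on either strand, and in 0.253% of all 32841 windows of this length. The MYT1L letters AAAGTT were in 1 of the 7, on the minus strand of *Gli3* (AACTTT as printed), and in 14.1% of all windows. Their first base was 25 bases before the start that the window uses, and thus inside *Gli3* as deposited, which begins at 15463235. Neither motif contains the other, and a match or its absence in such a window is a description of these letters alone.

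No member passed the threshold of an adjusted p under 0.1, which the study uses. By the quasi-likelihood test of edgeR, 0 of 9 members were higher and 0 of 9 lower in (+/−) cultures, as were 0% and 0% of the 18264 genes tested, and the smallest adjusted p of any gene was 0.166. All 9 members had a positive log2 fold change of (+/−) over (+/+), against 50.4% of all tested genes, with a median of 0.39 over the members and of 0.003 over all genes. At an unadjusted p under 0.05, 2 members were higher (*Smo* and *Cdon*), against 13.2% of all genes, and 0 were lower, against 9.11%. Every (+/−) animal lay above every (+/+) animal for 1 member (*Smo*), which is close to the 15.5% of all genes with this order, and below for 0 members, against 13.5%. DESeq2 on the same 6 animals called 2 members higher, *Smo* (adjusted p = 0.0611) and *Cdon* (adjusted p = 0.0598), against 8.01% of 17200 genes, and 0 members lower, against 4.57%. In bulk RNA, fewer cells of a type and less RNA per cell cannot be told apart.

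**Figure D1:**
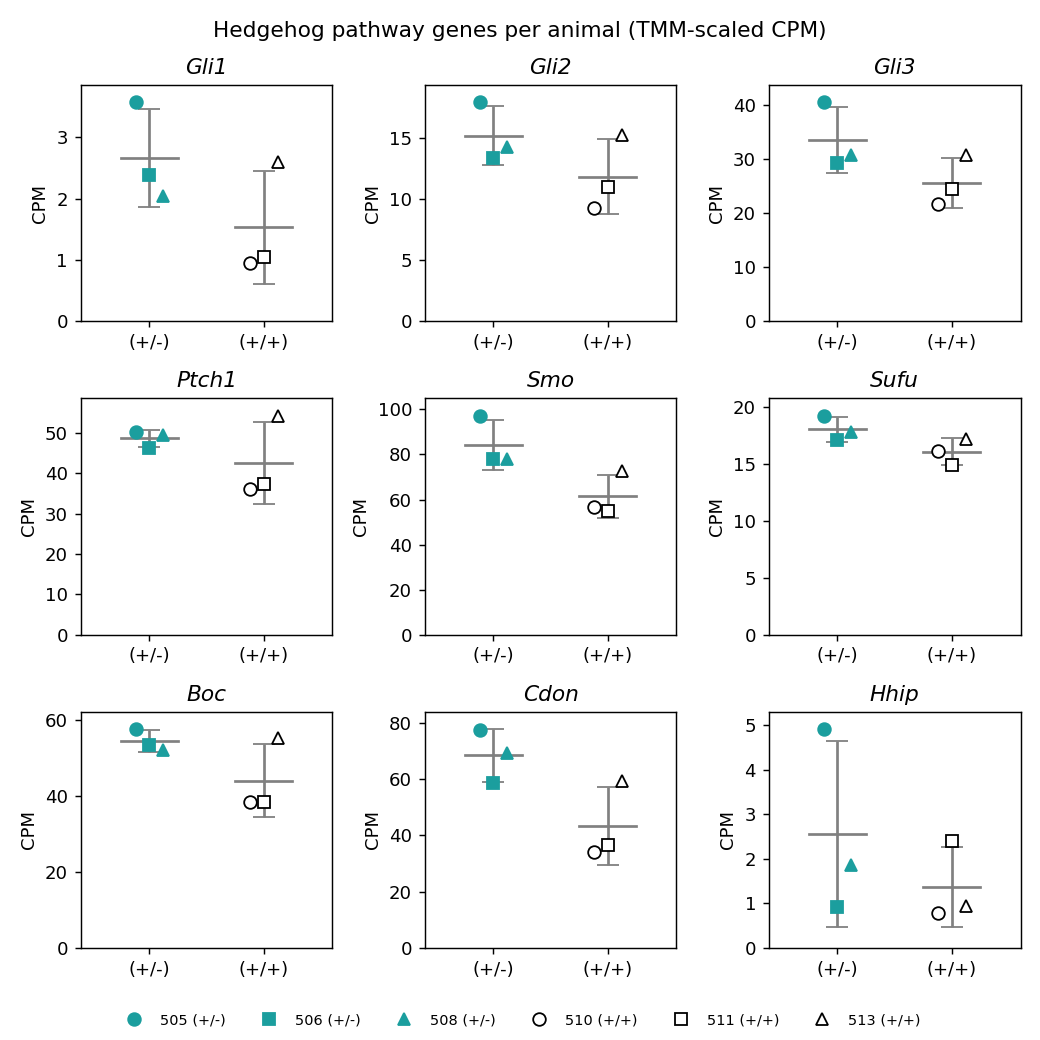
CPM of the 9 Hedgehog genes (y axis, from 0) in each of the 3 (+/−) animals (filled) and 3 (+/+) animals (open), with the mean as a line and 1 SD as error bars. The genotypes are separate for *Smo* alone, and (+/+) animal 513 (open triangle) lies within or above the (+/−) animals for *Gli1*, *Gli2*, *Gli3*, *Ptch1*, *Sufu*, *Boc* and *Cdon*.

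Among the proteins at the cell surface, *Cdon* had the largest difference of an abundant member. CDON is an immunoglobulin superfamily coreceptor that binds Hedgehog ligands together with Patched. *Cdon* had 77.4, 58.8 and 69.2 CPM in (+/−) animals 505, 506 and 508, against 34.2, 36.5 and 59.5 CPM in (+/+) animals 510, 511 and 513. All (+/−) animals were far above 510 and 511, and the groups met where 513 stood just over 506. It averaged 68.5 ± 9.32 CPM (SD) over the 3 (+/−) animals and 43.4 ± 14.0 CPM over the 3 (+/+) animals, and the log2 fold change was 0.66 (SE 0.22, 95% interval 0.16 to 1.16), with an edgeR adjusted p of 0.175 and an exact two-sided permutation p of 0.2. With 3 animals against 3 that permutation test cannot go below 0.1.

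*Boc* encodes the related coreceptor. It had 57.6, 53.5 and 52.2 CPM in (+/−) animals 505, 506 and 508, against 38.5, 38.4 and 55.1 CPM in (+/+) animals 510, 511 and 513. The (+/−) animals lay close together, 510 and 511 were nearly equal and lower, and 513 fell among the (+/−) values. The log2 fold change was 0.31 (SE 0.15, 95% interval -0.04 to 0.65), with an edgeR adjusted p of 0.253 and an exact permutation p of 0.3.

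*Ptch1*, the receptor that is also induced by the pathway, had 50.1, 46.3 and 49.3 CPM in (+/−) animals 505, 506 and 508, against 36.0, 37.4 and 54.2 CPM in (+/+) animals 510, 511 and 513. It was the only member whose highest animal was 513, while 510 and 511 were below all (+/−) animals. The log2 fold change was 0.19 (SE 0.16, 95% interval -0.17 to 0.56), with an edgeR adjusted p of 0.452 and an exact permutation p of 0.4. The SD of *Ptch1* was 2.03 CPM over the 3 (+/−) animals and 10.1 CPM over the 3 (+/+) animals.

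*Hhip* encodes a membrane protein that binds Hedgehog ligands and withholds them from Patched. It had 223, 38 and 76 counts (4.91, 0.917 and 1.87 CPM) in (+/−) animals 505, 506 and 508, against 41, 108 and 40 counts (0.788, 2.40 and 0.936 CPM) in (+/+) animals 510, 511 and 513. The genotypes overlapped throughout, with 505 and the (+/+) animal 511 highest and 506 among the low (+/+) animals, an order that no other member shared. The log2 fold change of 0.91 had an SE of 0.65 and a 95% interval of -0.59 to 2.41, with an edgeR adjusted p of 0.391 and an exact permutation p of 0.6. Without 505 it was 0.02, and without 511 it was 1.58.

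*Smo*, which encodes the membrane protein that carries the signal into the cell, was the member with the smallest p. It had 97.2, 78.0 and 78.1 CPM in (+/−) animals 505, 506 and 508, against 56.7, 55.1 and 72.6 CPM in (+/+) animals 510, 511 and 513. Every (+/−) animal was above every (+/+) animal, with 513 nearest to them. It averaged 84.4 ± 11.1 CPM (SD) over the 3 (+/−) animals and 61.5 ± 9.63 CPM over the 3 (+/+) animals, and the log2 fold change was 0.46 (SE 0.14, 95% interval 0.13 to 0.78). Its edgeR adjusted p was 0.168, and its exact permutation p of 0.1 is the lowest these numbers allow.

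*Sufu*, which encodes the cytoplasmic inhibitor that binds GLI factors, varied least over the 6 animals. It had 19.2, 17.0 and 17.8 CPM in (+/−) animals 505, 506 and 508, against 16.1, 14.9 and 17.2 CPM in (+/+) animals 510, 511 and 513. The groups overlapped only in that 513 was slightly above 506. The log2 fold change was 0.17 (SE 0.10, 95% interval -0.07 to 0.40), with an edgeR adjusted p of 0.328 and an exact permutation p of 0.2.

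*Gli3* is the main repressor among the GLI factors and *Gli2* the main activator. *Gli3* had 40.4, 29.3 and 30.6 CPM in (+/−) animals 505, 506 and 508, against 21.6, 24.3 and 30.6 CPM in (+/+) animals 510, 511 and 513. *Gli2* had 17.9, 13.4 and 14.3 CPM in (+/−) animals 505, 506 and 508, against 9.30, 11.0 and 15.3 CPM in (+/+) animals 510, 511 and 513. In both genes 505 was highest and 510 lowest, and 513 lay above 506 and level with or above 508. The log2 fold change was 0.39 for *Gli3* (SE 0.17, 95% interval -0.00 to 0.78) and 0.36 for *Gli2* (SE 0.20, 95% interval -0.10 to 0.83). Their edgeR adjusted p values were 0.225 for *Gli3* and 0.292 for *Gli2*, and the exact permutation p was 0.3 for each.

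*Gli1*, an activator whose own transcription follows pathway activity, had 162, 99 and 83 counts in (+/−) animals 505, 506 and 508, against 50, 47 and 111 counts in (+/+) animals 510, 511 and 513. In CPM, with exact Poisson 95% intervals that cover counting error only, these were 3.57 (3.04 to 4.16), 2.39 (1.94 to 2.91) and 2.04 (1.63 to 2.53) in (+/−), against 0.961 (0.713 to 1.27), 1.05 (0.769 to 1.39) and 2.60 (2.14 to 3.13) in (+/+) animals. The intervals of 510 and 511 lay below those of all other animals, whereas that of 513 overlapped those of 506, 508 and 505. It averaged 2.67 ± 0.801 CPM (SD) over the 3 (+/−) animals and 1.54 ± 0.922 CPM over the 3 (+/+) animals, and the log2 fold change was 0.81 (SE 0.41, 95% interval -0.15 to 1.77), with an edgeR adjusted p of 0.269 and an exact permutation p of 0.3.

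The order of the animals recurred in part from gene to gene, and only *Gli2* and *Gli3* shared it in full. Animals 510 and 511 were the lowest for every member but *Hhip*. The place of 513 moved, from highest for *Ptch1* to below all (+/−) animals for *Smo*. Animal 505 was highest of the 6 for 8 of the 9 members, 513 was the highest (+/+) animal for 8 of the 9, and 506 was the lowest (+/−) animal for 7 of the 9. The median log2 deviation of the members from the (+/+) mean was 0.67 in 505, 0.21 in 506 and 0.30 in 508, against -0.23 in 510, -0.15 in 511 and 0.35 in 513. By this median 513 lay between 508 and 505. The 9 transcripts come from the same 6 cultures and are not separate evidence of a genotype difference.

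**Figure D2:**
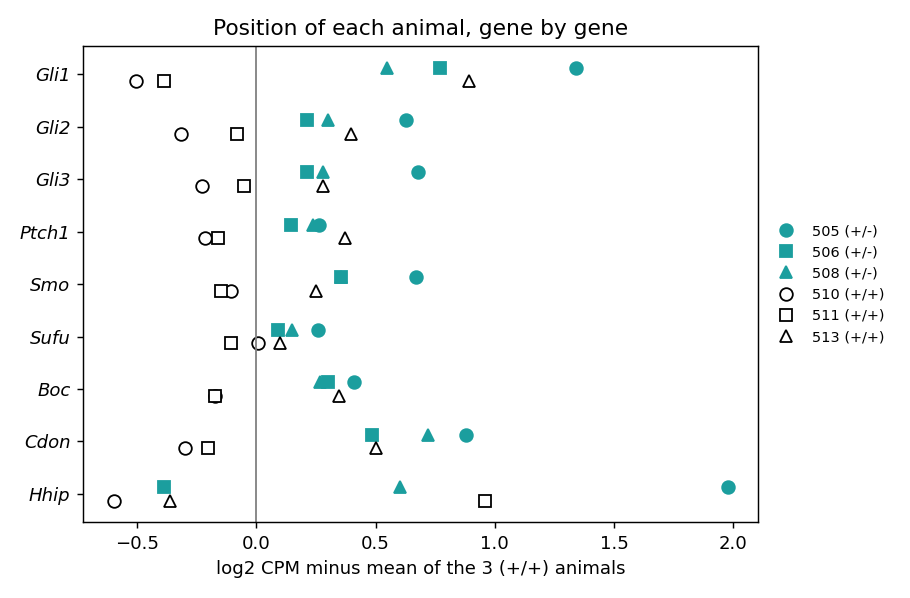
Log2 CPM of each gene by animal, relative to the (+/+) mean (x axis), 1 row per gene, with (+/−) animals filled and (+/+) animals open. Animals 510 and 511 sit at or left of 0 except for 511 in *Hhip*, and 513 sits among or right of the filled symbols in all rows but *Smo*, where it is left of all of them.

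The result turned on animal 513. Without it, edgeR called 7 of the 9 members higher in (+/−) cultures, against 12.3% of 18638 genes, and 0 lower, against 5.95%. The 7 were *Cdon* (log2 fold change 0.94, adjusted p = 0.0181), *Boc* (0.49, adjusted p = 0.0279), *Gli1* (1.40, adjusted p = 0.0384), *Smo* (0.58, adjusted p = 0.0406), *Ptch1* (0.39, adjusted p = 0.0461), *Gli2* (0.58, adjusted p = 0.0717) and *Gli3* (0.53, adjusted p = 0.0836), whereas *Sufu* (0.21, adjusted p = 0.218) and *Hhip* (0.69, adjusted p = 0.545) were not called. Since 513 had the highest (+/+) value of 8 members, leaving it out raises those differences by construction.

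The labels of 513 are those of the other (+/+) animals, its total was 43129302 counts, and 4.25% of them were mitochondrial, the highest share of the 6. Without 505, the highest (+/−) animal, edgeR called 0 members and the log2 fold changes were 0.54 for *Gli1*, 0.23 for *Gli2*, 0.23 for *Gli3*, 0.17 for *Ptch1*, 0.34 for *Smo*, 0.12 for *Sufu*, 0.26 for *Boc*, 0.56 for *Cdon* and 0.02 for *Hhip*. Without 511, the animal with *Xist* counts, 0 members were called by edgeR either, with log2 fold changes of 0.60 for *Gli1*, 0.31 for *Gli2*, 0.36 for *Gli3*, 0.11 for *Ptch1*, 0.38 for *Smo*, 0.11 for *Sufu*, 0.22 for *Boc* and 0.55 for *Cdon*. DESeq2 with genetic sex as a term called neither *Smo* (adjusted p = 0.420) nor *Cdon* (adjusted p = 0.384). As 511 alone had high *Xist* counts, that term sets 511 apart and comes close to leaving it out. In edgeR the term gave log2 fold changes of 0.39 for *Smo* and 0.55 for *Cdon*, nearly those without 511.

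**Figure D3:**
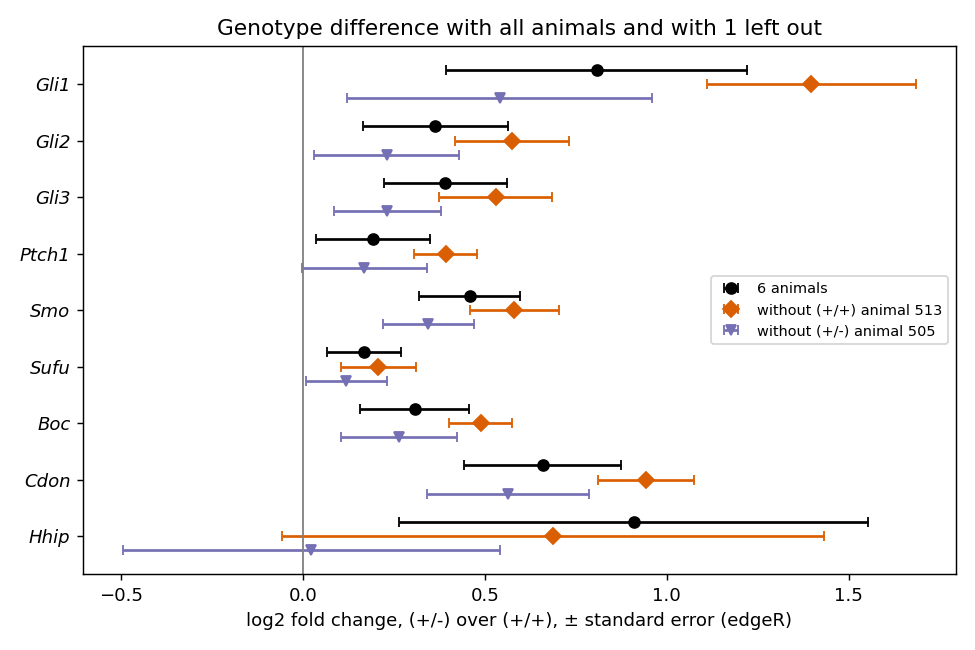
EdgeR log2 fold change of (+/−) over (+/+) for each gene (x axis), with bars of 1 SE, from all 6 animals (black circles), without (+/+) animal 513 (orange diamonds) and without (+/−) animal 505 (violet triangles). Every estimate is positive, those without 513 are the largest except for *Hhip*, and those without 505 are the smallest.

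Differences between libraries were small beside the spread of (+/+) animals for the abundant members, but not always beside that of (+/−) animals. Both libraries of an animal differed by at most 0.06 on the log2 scale for *Cdon*, 0.07 for *Smo* and 0.12 for *Boc*, whereas the (+/−) animals spanned 0.40 for *Cdon*, 0.32 for *Smo* and 0.14 for *Boc*, and the (+/+) animals 0.80 for *Cdon*, 0.40 for *Smo* and 0.52 for *Boc*. For *Ptch1* the libraries differed by at most 0.17, against a span of 0.12 among (+/−) and 0.59 among (+/+) animals. *Sufu* had up to 0.21 between libraries and a span of 0.17 among (+/−) and 0.21 among (+/+) animals. For the members with few counts the libraries differed by up to 0.48 for *Gli1* and 1.102 for *Hhip*.

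Marker sums of astrocytes, radial glia and the oligodendrocyte lineage ordered the animals much as the members did. The labels do not say how many cells of each kind the cultures held, and no listed marker was at 0 in every animal. The 9 members summed to 368, 300 and 315 CPM in (+/−) animals 505, 506 and 508, against 214, 221 and 308 CPM in (+/+) animals 510, 511 and 513. Astrocyte markers summed to 14203, 13423 and 12876 CPM in (+/−) animals 505, 506 and 508, against 9348, 9159 and 13936 CPM in (+/+) animals 510, 511 and 513. Radial glia markers summed to 7270, 6380 and 6254 CPM in these (+/−) animals, against 4645, 4324 and 6347 CPM in these (+/+) animals. *Gfap* made up much of the astrocyte sum, with 6079 CPM in 505 and 2769 CPM in 510. *Vim* made up most of the radial glia sum, with 5665 CPM in 505 and 3599 CPM in 510. The abundant astrocyte markers *Slc1a3* and *Slc1a2* had log2 fold changes of -0.02 and -0.07, whereas 8 of the 11 were positive. In both lists, as in the members, 513 lay with the (+/−) animals and 510 and 511 were low. Oligodendrocyte lineage markers had this pattern too. They summed to 125, 101 and 105 CPM in these (+/−) animals, against 87.3, 83.1 and 104 CPM in these (+/+) animals. Of the 5 tested, 3 had a positive and 2 a negative log2 fold change.

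Over the lists, 8 of 11 astrocyte markers had a positive log2 fold change (median 0.10) and 8 of 10 radial glia markers did (median 0.39), against the 50.4% of all tested genes. All 9 ependymal and motile cilia markers were positive (median 0.96), and their sum was 1071, 907 and 997 CPM in (+/−) animals, against 595, 504 and 736 CPM in (+/+) animals, separate between the genotypes. Neuron markers were positive for 0 of 12 (median -0.47), with sums of 2495, 4290 and 4749 CPM in (+/−) animals, against 5068, 5582 and 4813 CPM in (+/+) animals. Animal 505, the highest for 8 members, was thus the lowest in neuron markers.

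For *Hhip* the highest animals were those of another list. Meningeal fibroblast markers summed to 1645, 535 and 441 CPM in (+/−) animals 505, 506 and 508, against 521, 874 and 218 CPM in (+/+) animals 510, 511 and 513, so that 505 and 511 were highest there as they were for *Hhip*, while the order of the other 4 animals differed. Choroid plexus markers summed to 1550, 730 and 395 CPM in (+/−), against 272, 168 and 87.2 CPM in (+/+) animals, and microglia markers to 231, 127 and 122 CPM in (+/−), against 90.8, 116 and 89.1 CPM in (+/+) animals. Oligodendrocyte lineage markers summed to 101 to 125 CPM in (+/−) and 83.1 to 104 CPM in (+/+) animals, endothelial and mural markers to 359 to 554 CPM in (+/−) and 313 to 400 CPM in (+/+) animals, and proliferation genes to 104 to 128 CPM in (+/−) and 77.8 to 91.7 CPM in (+/+) animals. The sums of the choroid plexus, microglia and proliferation lists were, like those of the ependymal list, separate between the genotypes with (+/−) above, and those of the neuron list with (+/−) below. Singly, every (+/−) animal was above for 6 of 8 tested choroid plexus, 4 of 9 microglia and 5 of 8 proliferation genes, against 15.5% of all genes. For 1 choroid plexus gene, *Kl*, every (+/−) animal was below, and *Ttr* made up much of that list's sum (1302 CPM in 505). Forebrain neuron markers of cortex and hippocampus were present, with sums of 1038 to 1661 CPM in (+/−) and 1641 to 1944 CPM in (+/+) animals. Though these sums overlapped, 9 of the 10 genes had a negative log2 fold change (median -0.49). For 4 of them every (+/−) animal was below, against 13.5% of all genes. The 1 positive gene, *Zbtb20*, made up much of the sum in 505 (423 CPM). The part of these cell types in the members' values was not tested, and 0 markers of any list passed the adjusted test.

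**Figure D4:**
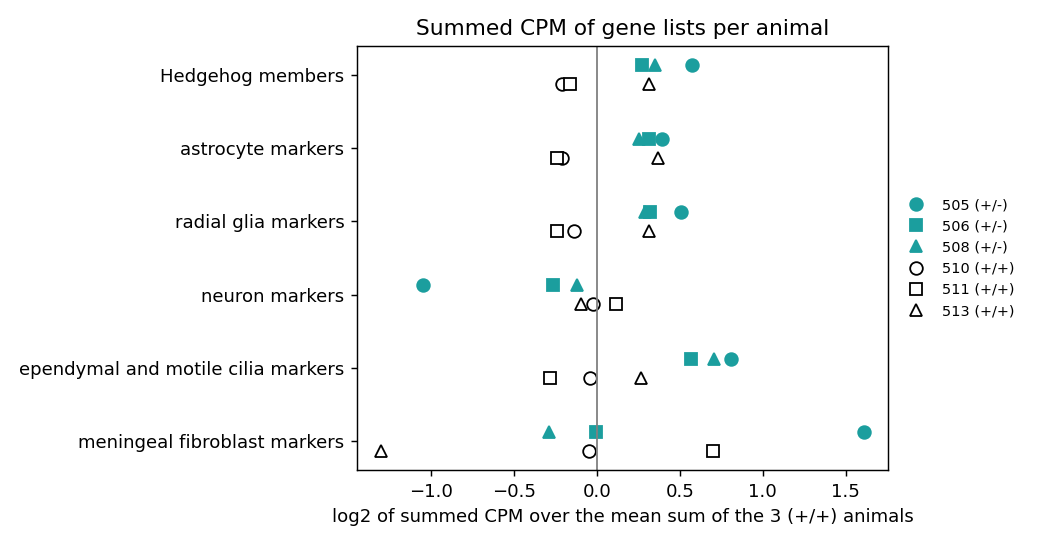
Log2 of the summed CPM of each gene list in each animal over the mean sum of the 3 (+/+) animals (x axis), with (+/−) animals filled and (+/+) animals open. Open triangle 513 lies with the filled symbols for the Hedgehog, astrocyte and radial glia sums but left of all others for meningeal fibroblast markers.

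Beyond the 9 members, 48 further genes of the pathway were read by role. Of these, 43 were tested, 0 passed the adjusted threshold, 26 had a positive and 17 a negative log2 fold change, and the median was 0.20, against 0.003 over all genes. At an unadjusted p under 0.05, 11 of the 43 were higher and 4 lower, against the 13.2% and 9.11% of all genes. Every (+/−) animal was above every (+/+) animal for 9 of the 43 and below for 4, against 15.5% and 13.5% of all genes.

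The ligands were scarce. *Shh*, encoding Sonic hedgehog, had 1.67, 2.20 and 2.09 CPM in (+/−) animals 505, 506 and 508, against 1.79, 1.98 and 1.97 CPM in (+/+) animals 510, 511 and 513. The groups overlapped, and the log2 fold change was 0.06 (SE 0.18, edgeR adjusted p = 0.859). *Dhh*, encoding Desert hedgehog, had 1.70, 1.69 and 1.52 CPM in (+/−), against 2.56, 1.69 and 2.04 CPM in (+/+) animals, with a log2 fold change of -0.36 (SE 0.21, edgeR adjusted p = 0.314). *Ihh*, encoding Indian hedgehog, was under the filter with 7, 6 and 2 counts in (+/−), against 4, 4 and 11 counts in (+/+) animals, and was not tested.

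The other genes of this role act in ligand release and transport. Of its 8 tested genes 4 had a positive and 4 a negative log2 fold change, with a median of -0.03, and those at an unadjusted p under 0.05 were *Disp1* and *Scube3*. *Disp1* exports lipid-bearing ligand, and *Scube3* belongs to a family of secreted proteins that take it up. *Disp1* had 10.4, 8.64 and 8.41 CPM in (+/−), against 5.67, 5.83 and 7.66 CPM in (+/+) animals (log2 fold change 0.52, SE 0.16, edgeR adjusted p = 0.170). *Scube3* had 86.7, 71.7 and 77.7 CPM in (+/−), against 63.7, 51.2 and 62.1 CPM in (+/+) animals (log2 fold change 0.41, SE 0.12, edgeR adjusted p = 0.167). Both were without overlap between the genotypes.

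*Gas1*, encoding a membrane-anchored coreceptor that works alongside CDON and BOC, had the smallest p of all pathway genes. It had 99.2, 87.1 and 76.8 CPM in (+/−) animals 505, 506 and 508, against 54.0, 58.0 and 67.3 CPM in (+/+) animals 510, 511 and 513. The genotypes did not overlap, and again 513 was the highest (+/+) animal. The log2 fold change was 0.55 (SE 0.13), with an edgeR adjusted p of 0.166. *Lrp2*, an endocytic receptor that binds SHH, had 68.7, 54.0 and 57.3 CPM in (+/−), against 51.7, 46.2 and 42.5 CPM in (+/+) animals (log2 fold change 0.36, SE 0.12, edgeR adjusted p = 0.179), and there 513 was the lowest animal.

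Of 13 genes of the primary cilium and of SMO or GLI transport, 5 were higher and 1 lower at an unadjusted p under 0.05, against 13.2% and 9.11% of all genes. The smallest p values belonged to the intraflagellar transport genes *Ift172* and *Ift88* and the retrograde motor gene *Dync2h1*. *Ift172* had 99.1, 86.4 and 97.2 CPM in (+/−), against 62.5, 65.3 and 80.5 CPM in (+/+) animals (log2 fold change 0.44, SE 0.12, edgeR adjusted p = 0.166). *Ift88* had 25.5, 22.6 and 24.95 CPM in (+/−), against 13.5, 14.4 and 20.6 CPM in (+/+) animals (log2 fold change 0.59, SE 0.17, edgeR adjusted p = 0.167), and *Dync2h1* had a log2 fold change of 0.48 (SE 0.16, edgeR adjusted p = 0.183). These genes also serve motile cilia, whose summed markers were higher in each (+/−) animal (8 of the 9 markers were so singly), and the share of either cilium type was not tested. The gene that was lower, named here after its value was seen, was *Grk2*, a kinase of SMO, with a log2 fold change of -0.30 and an edgeR adjusted p of 0.215.

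Among 10 kinase and ubiquitin ligase genes that act on GLI factors, *Stk36*, encoding the Fused homologue, and *Ulk3*, a related kinase, stood on opposite sides. *Stk36* had 43.1, 35.8 and 39.0 CPM in (+/−), against 23.9, 22.2 and 32.1 CPM in (+/+) animals (log2 fold change 0.59, SE 0.15, edgeR adjusted p = 0.166). *Ulk3* had 12.6, 14.9 and 13.1 CPM in (+/−), against 16.4, 18.3 and 18.0 CPM in (+/+) animals (log2 fold change -0.38, SE 0.11, edgeR adjusted p = 0.167). In each of them the genotypes did not overlap. In the mouse STK36 is known mainly for motile cilia.

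Genes known as Hedgehog targets in other tissues went in both directions. Of the 12 listed, 9 were tested, with 6 positive and 3 negative log2 fold changes. *Bcl2*, an inhibitor of cell death, had 43.7, 34.2 and 35.8 CPM in (+/−), against 25.1, 22.0 and 34.8 CPM in (+/+) animals (log2 fold change 0.47, SE 0.18, edgeR adjusted p = 0.197). *Mycn*, a growth regulator that Hedgehog signalling induces in cerebellar precursors, had 4.49, 7.19 and 7.23 CPM in (+/−), against 9.47, 11.1 and 8.01 CPM in (+/+) animals (log2 fold change -0.60, SE 0.21, edgeR adjusted p = 0.188). *Mycn* was thus below all (+/+) animals in every (+/−) animal, and 505, highest for *Gli1*, was lowest. *Foxf1*, a mesenchymal target, was near the floor at 0.507, 0.314 and 0.295 CPM in (+/−), against 0.961, 0.757 and 0.398 CPM in (+/+) animals (log2 fold change -0.92, SE 0.40, edgeR adjusted p = 0.224).

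The same dependence on method and animal held for these genes. DESeq2 called 8 of the 43 higher, 7 of which are named above, and 2 lower, *Ulk3* and *Mycn*, against 8.01% and 4.57% of all genes. EdgeR without 513 called 13 of 44 higher and 1 lower (*Foxf1*), against 12.3% and 5.95% of all genes, and without 505 it called 0 in either direction.

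**Figure D5:**
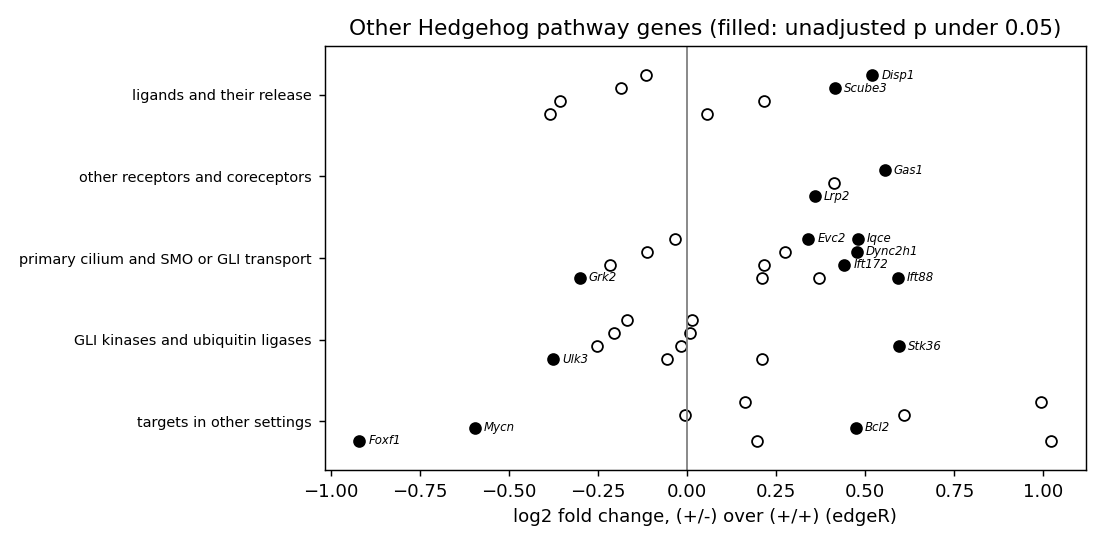
EdgeR log2 fold change of (+/−) over (+/+) for the 43 tested genes of the wider pathway (x axis), grouped by role on the y axis, with genes at an unadjusted p under 0.05 filled and named. Receptor genes all lie right of 0, kinase and ligase genes lie near it except *Stk36* and *Ulk3*, and targets spread to both sides.

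Likeness to *Gli1* was read as the root mean square difference in log2 CPM over the 6 animals, each gene centred on its own mean, among 15119 genes with a mean of 1 CPM or more. The nearest were *Greb1* (0.130), *Cdh19* (0.132), *Gm27533* (0.154), *Trim12a* (0.156) and *Gm31024* (0.158). In all 5 of them, as in *Gli1*, 505 was highest and 510 and 511 were lowest, an order that comes with their choice by likeness. *Greb1* had 11.9, 8.81 and 8.88 CPM in (+/−) animals 505, 506 and 508, against 3.82, 4.47 and 9.20 CPM in (+/+) animals 510, 511 and 513. Of the other members *Cdon* was the most like *Gli1* (0.288, rank 229) and *Hhip* the least (0.922, rank 13462), and *Gli2* (0.382) and *Smo* (0.411) stood between them. The likeness is a description of these cultures.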

How the data were processed

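RNA of 12 libraries from 6 animals was analysed. The deposited values were raw read counts for each gene in each library. To make them the authors aligned 100 bp paired-end reads from dUTP (stranded) libraries to mm10 with STAR. The sources used here do not give the counting tool. Deposited fold changes, p-values and normalised counts were not used. Per animal, both libraries were added up, since an animal is the replicate, and nothing says what distinguishes both libraries. Animals were compared in R 4.3.3 with edgeR 4.0.16 (filterByExpr, TMM, quasi-likelihood test, Benjamini-Hochberg adjustment over 18264 genes, adjusted p under 0.1). CPM used TMM-scaled totals. RPKM divided CPM by the deposited exon length. DESeq2 1.42.0 and limma 3.58.1 served as alternatives. The test was run first on simulated data. All 9 members were named, and of other pathway genes the ligands, *Gas1* and up to 3 per role with the smallest unadjusted p under 0.05. A further gene that the rule names is not reported here. Members and lists were chosen with earlier results of these data known. Gene positions matched GENCODE vM21 for all 54345 shared identifiers.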

Additional observations from a re-analysis of the deposited data

How the results depend on the processing

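All 9 members kept a positive log2 fold change in each of the 17 settings run, and *Sufu* and *Hhip* were called in none. Counts of genes called did change. DESeq2 called 1377 genes higher and 786 lower in (+/−) cultures and 2 members higher; with genetic sex as a term it called 224 higher and 35 lower and 0 members. EdgeR with no low-count filter called 1021 higher and 454 lower, with 2 members higher (*Smo* and *Cdon*). Leaving out each animal in turn gave 0 to 2294 genes higher, 0 to 1109 lower and 0 to 7 members higher, and each nonzero count came from leaving out 513. DESeq2 size factors, a minimum of 1 CPM in 3 animals, a newer quasi-likelihood method, limma voom, genetic sex in edgeR, either library alone and an adjusted p under 0.05 gave 0 calls, as the reported test did. The causes were not tested.

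A limma voom fit of the 12 libraries with library number as a replicate block and animals as a random term (correlation within an animal 0.807) called 1868 genes higher and 1729 lower and 4 members higher (*Gli3*, *Smo*, *Boc* and *Cdon*). Library numbers did not pair the animals: differences between both libraries correlated at -0.0255 to 0.0366 over 15 pairs of animals. Depth limits *Gli1* (47 to 162 counts per animal) and *Hhip* (38 to 223), whose intervals are wide.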
